A study of Rattus norvegicus with 12 samples.

Results

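Phase 2 of a long fast, when fat reserves supply most of the energy, was compared with the fed state in the epididymal white adipose tissue of rats, the visceral fat pad beside the epididymis. The comparison used 8 of the 12 arrays of the study, chosen by the group in their titles, and all 14506 genes that the arrays measured with a probe set of 1 gene symbol. It set 4 rats fasted until phase 2 against 4 fed rats. All were male Sprague-Dawley rats, randomly divided into the groups, and each rat gave 1 array. A group of 4 rats fasted until phase 3 shared the model's estimate of the spread. It is quoted for levels and for differences from phase 2, which also served to choose the genes extreme in phase 2. Neither the rats' age nor the length of the fast stands in the labels. Levels are log2 expression values per probe set, so that a difference of 1 is a 2-fold change, and the level of a gene is not compared with that of another gene.

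White adipose tissue stores triglyceride when insulin is high. During a fast insulin falls and catecholamines, glucocorticoids and growth hormone act on the adipocyte, which then releases fatty acids and glycerol to the blood. Adipocytes take their orders through G protein-coupled, tyrosine kinase and cytokine receptors, signal back with secreted peptides known as adipokines, and change their gene programme through transcription factors of the nuclear receptor, KLF, forkhead and C/EBP families. The account below follows that order, receptors, secreted factors, transcription factors and transport, and closes with the largest changes outside these roles, those of fat synthesis among them.

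The tissue was checked against marker genes, because the extraction note in the labels speaks of liver. All 12 adipocyte markers lay above background, with a mean level of 12.09 to 12.15 in fed rats, while the 12 hepatocyte markers averaged 4.87 to 5.06 and 8 of them lay near background. A group mean is called near background here when it was below 5.63, the 95th percentile of the group means of 53 olfactory receptor genes, taken as mostly silent in fat. Of the genes given below by a change of at least 2-fold, Tnr, Grem1 and Abcb1a lay near background in fed rats. Bmp3 and Aqp11 lay there in phase 2 rats, and the changes of all these genes give no exact fold. Among smaller changes, C1qtnf3, Slc6a17, Slc7a3, Sorcs3, Sostdc1, Vdr and Acvr2b lay near background in both groups and Bmp8a in fed rats. Further genes near background are marked where they are named. Markers of other cells moved with the fast. Endothelial markers were higher in 8 of 11 cases (mean level per rat 9.08 to 9.23 in fed and 9.40 to 9.67 in phase 2 rats) and smooth muscle and pericyte markers in 10 of 12 (8.73 to 9.10 against 9.34 to 10.09). Fibroblast and progenitor markers were lower in 5 of 12 cases and higher in 1 (10.90 to 11.06 against 10.31 to 10.57), and mesothelial markers were lower in 4 of 6. None of these defining lists was near background as a whole, and in a whole fat pad fewer cells of a type and less RNA per cell cannot be told apart.

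In phase 2 rises outnumbered falls among the genes of receptors and transcription factors, while the split of secreted factors and transport genes lay nearer to that of all genes tested. Of the 488 receptor genes measured 82 were higher and 49 lower, of the 656 secreted factors 71 and 88, of the 697 transcription factors 105 and 38, and of the 901 transport genes 80 and 152 (limma, Benjamini-Hochberg adjusted p below 0.05). Over all genes tested 25.2% were called, 9.66% as higher and 15.5% as lower. The shares called higher were therefore 16.8% for receptors, 10.8% for secreted factors, 15.1% for transcription factors and 8.88% for transport, and the shares called lower 10%, 13.4%, 5.45% and 16.9%. Changes of at least 2-fold were called as rises for 13 receptors, 20 secreted factors, 6 transcription factors and 15 transport genes, and as falls for 9, 26, 5 and 23 of them, against 1.15% and 1.83% of all genes. The split moved with the scaling. Among all called genes 38.4% were higher as deposited, and 53% with each array centred on its median, which raised the median change of all genes from 0.01 to 0.07. With the same centring the share of called members that were higher went from 62.6% to 72.5% for receptors, from 44.7% to 52.4% for secreted factors, from 73.4% to 83.9% for transcription factors and from 34.5% to 48.5% for transport. Falls outnumbered rises under each scaling for transport, but not for secreted factors and all genes. Without fed rat 4 the 80 transport genes higher became 51. In 31% of all genes the values of the 4 fed rats were separate from those of the 4 phase 2 rats. Where a change in parentheses below is followed by its adjusted p, the call was lost in at least 1 of 21 alternative analyses, most often with 1 rat left out.

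**Figure D1:**
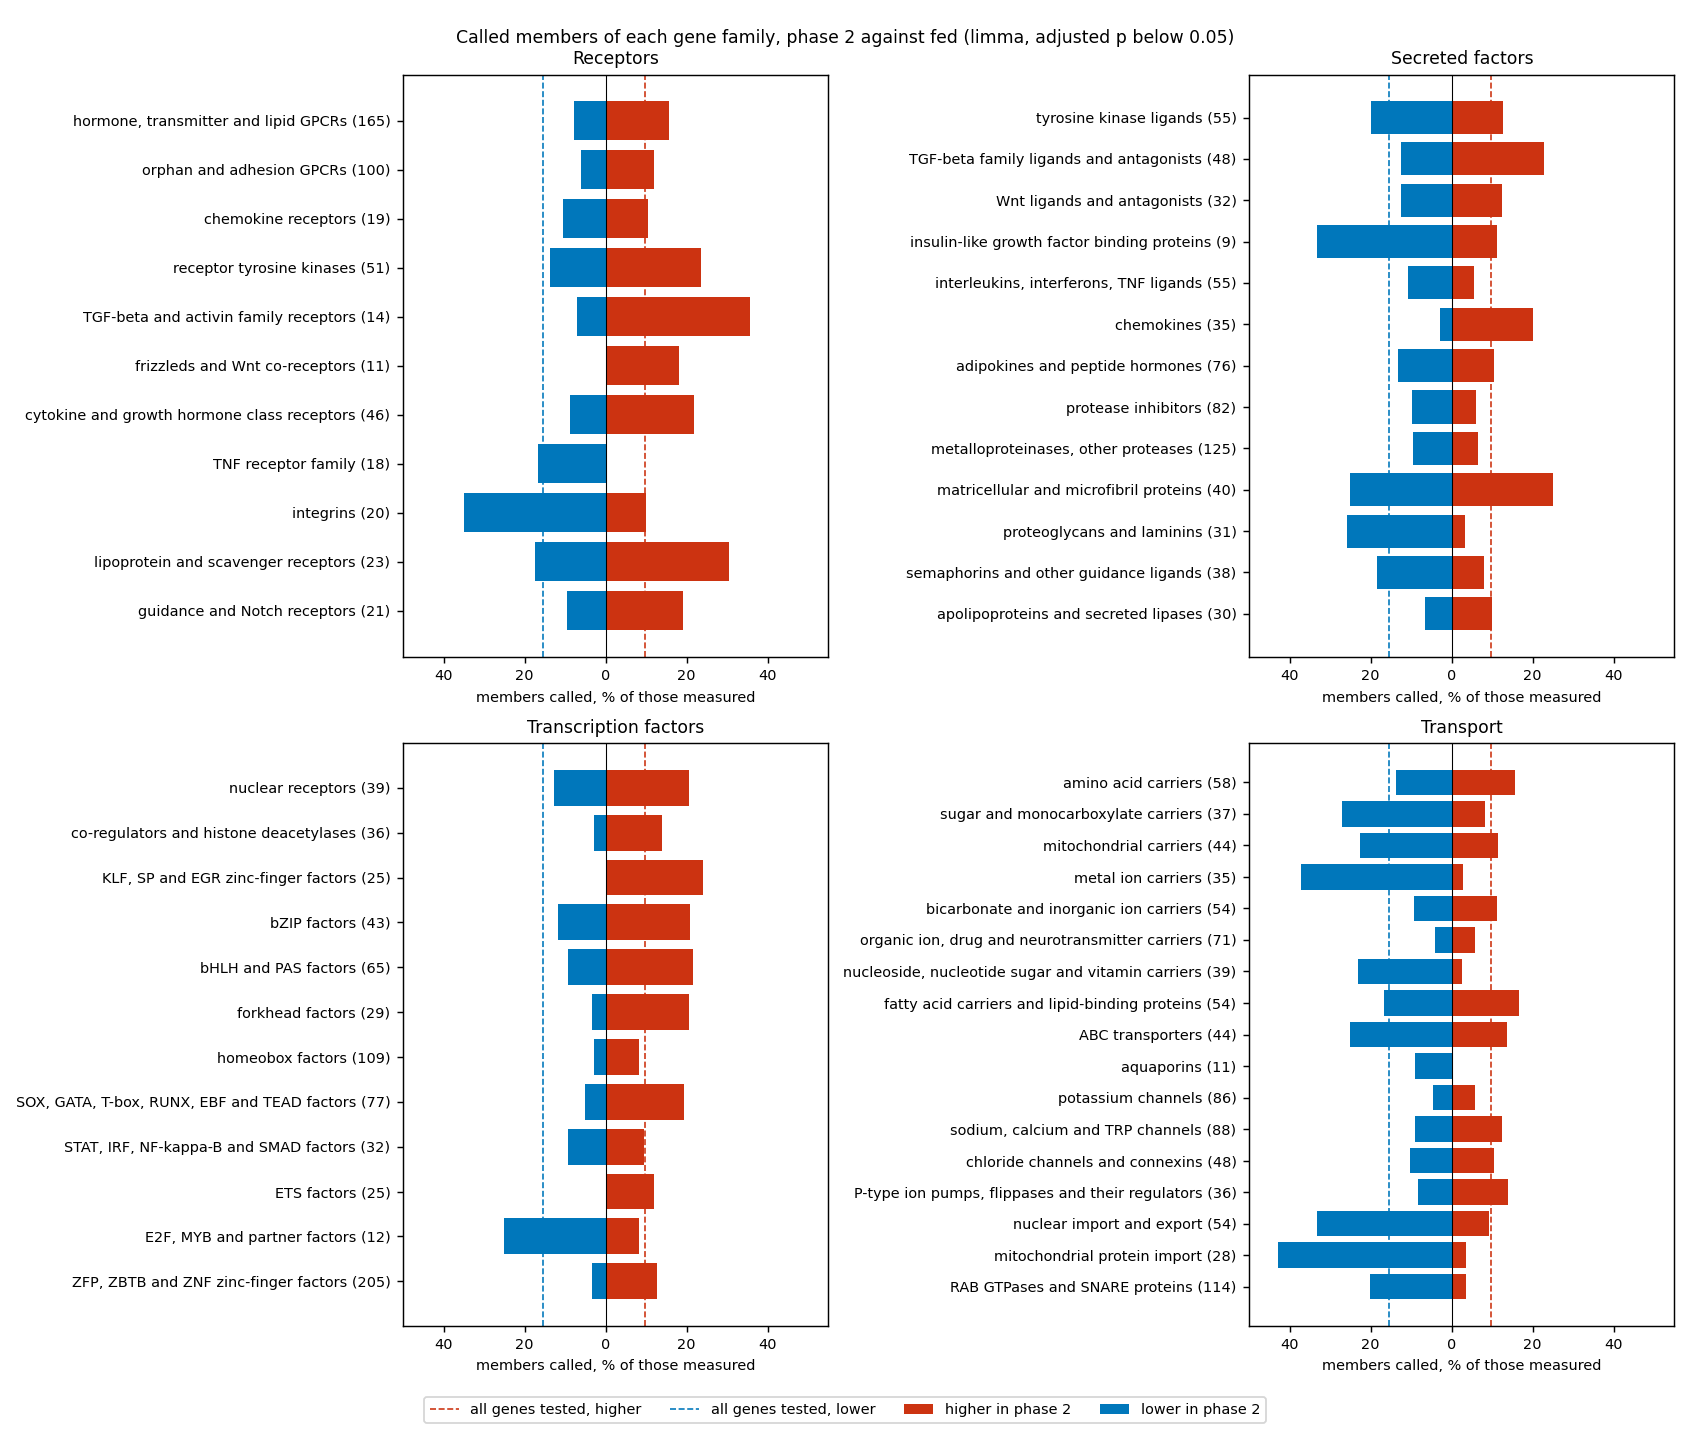
Share of the measured members of each gene family that were called higher (red, to the right) or lower (blue, to the left) in phase 2 against fed rats, in percent, with the number measured in parentheses. Dashed lines mark the shares over all genes tested, 9.66% higher and 15.5% lower; 9 of the 12 transcription factor families reach beyond the red line and 1 beyond the blue one.

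**Figure D2:**
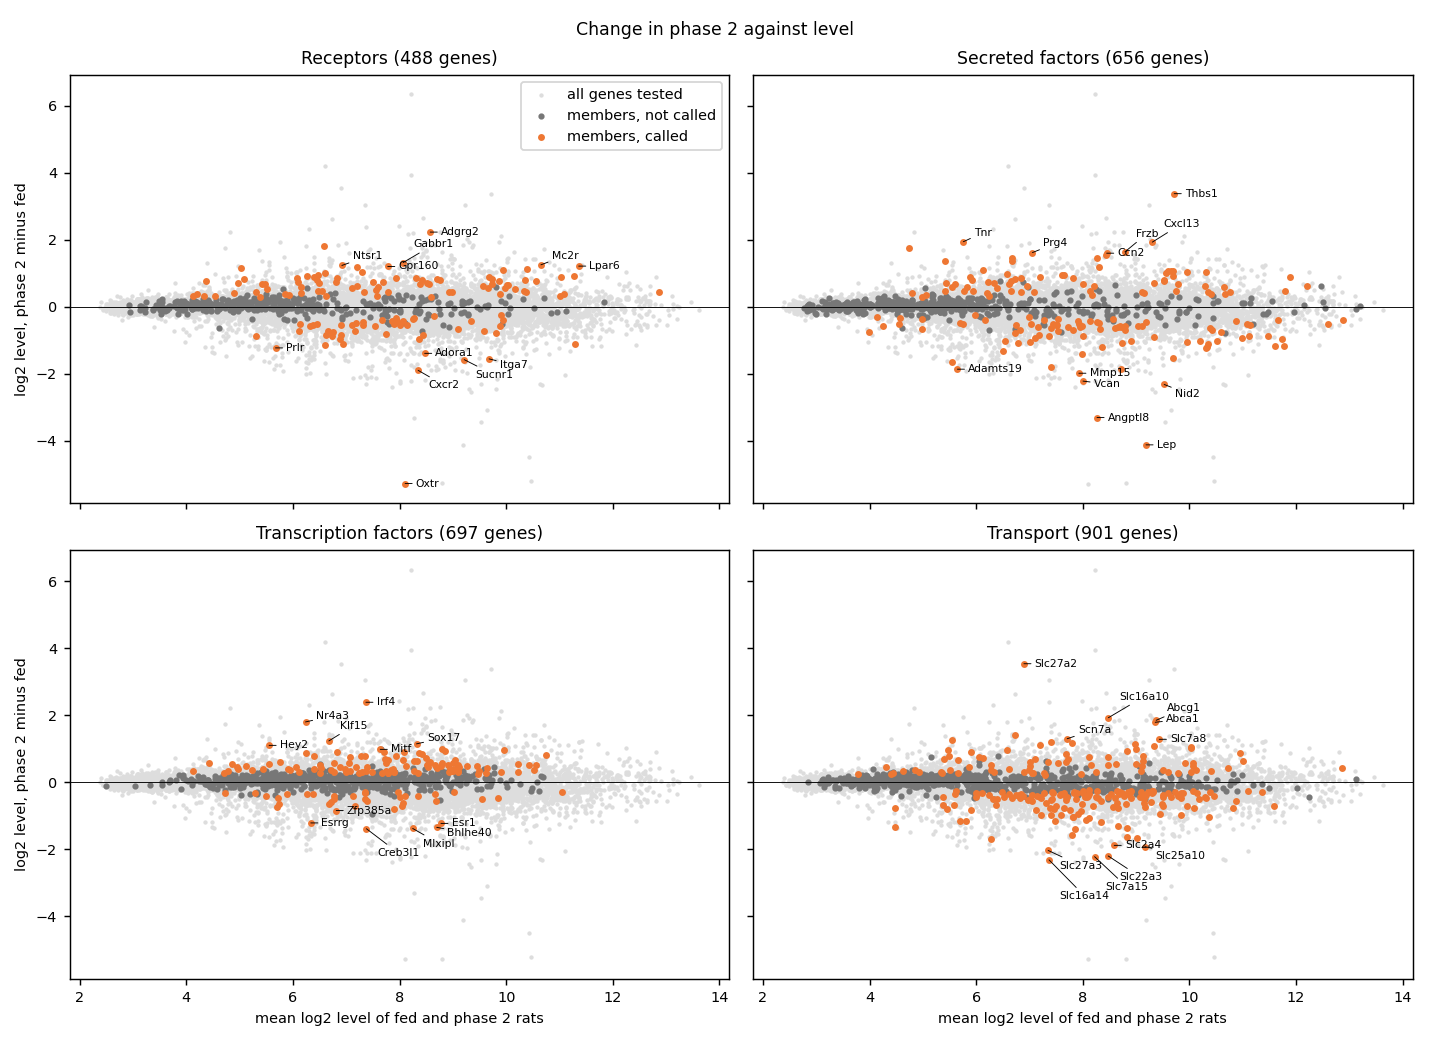
Log2 change in phase 2 against the mean log2 level of fed and phase 2 rats for all 14506 genes (light grey), with the members of each role in dark grey where not called and in orange where called. The 6 largest rises and falls per role with no overlap between the groups carry their names. Oxtr, at -5.27, lies furthest from zero among the receptors.

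Among the receptors for hormones, transmitters and lipids, Oxtr, the oxytocin receptor, changed by far the most. Its level was 10.68, 10.65, 10.73 and 10.89 in the fed rats and 5.29, 5.43, 5.46 and 5.70 in the phase 2 rats. The phase 2 mean lay near background, so that the fall of 5.27 ± 0.114 (SE) on the log2 scale gives no exact fold (adjusted p = 1.06e-12). Of the 165 receptors of this kind 26 were higher and 13 lower. Gabbr1, a subunit of the GABA-B receptor, stood at 7.53, 7.32, 7.53 and 7.25 in the fed rats and 8.67, 8.87, 8.59 and 8.79 in the phase 2 rats, with no overlap between the groups, and rose by 1.32 ± 0.121 (adjusted p = 3.89e-06). Mc2r, the receptor of the pituitary hormone ACTH, was at 10.26, 10.02, 9.99 and 9.83 in the fed rats and 11.34, 11.27, 11.50 and 11.01 in the phase 2 rats, a rise of 1.25 ± 0.124 (adjusted p = 7.91e-06). Mrap encodes the accessory protein that brings this receptor to the cell surface, and it moved the other way, from 8.30 ± 0.242 to 6.20 ± 0.36 (SD, n = 4). Ntsr1, a neurotensin receptor, rose by 1.23 ± 0.186 and Lpar6, a receptor of lysophosphatidic acid, rose by 1.21 ± 0.209. Rxfp2, the receptor of insulin-like peptide 3, was at 5.92, 6.86, 5.02 and 4.88 in the fed rats and 8.41, 6.56, 8.07 and 6.88 in the phase 2 rats, a rise of 1.81 (adjusted p = 0.0201) whose groups overlapped. Without the dimmest 40% of genes 15 of the 26 rises of this family were still tested and called.

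Falls in this family included 3 receptors that couple to the inhibitory G protein and are known to hold back cAMP. Adora1, the adenosine A1 receptor, stood at 9.30, 9.37, 9.01 and 8.98 in the fed rats and 7.71, 7.62, 7.92 and 7.86 in the phase 2 rats and fell by 1.39 ± 0.131 (adjusted p = 5.2e-06). Adra2c, an alpha-2 adrenoceptor, fell by 1.11 ± 0.118 and Ptger3, the EP3 prostaglandin receptor, by 0.67 ± 0.167. Receptors of the same coupling also rose, among them Npy1r, a receptor of neuropeptide Y (0.70, adjusted p = 0.0467), and Hcar2, which senses niacin and 3-hydroxybutyrate (0.84), so the called members did not share a direction. Receptors that raise cAMP were higher for Ptger2 (0.96), Ptgir (0.87) and Gipr (0.85), which bind prostaglandin E2, prostacyclin and the gut hormone GIP, and lower for Gcgr, the glucagon receptor (-0.75, adjusted p = 0.0373). Adrb3, the beta-3 adrenoceptor, differed by 0.59 and did not pass (adjusted p = 0.138). Sucnr1, the succinate receptor, fell from 10.00 ± 0.192 to 8.43 ± 0.248, and Ffar2 and Ffar4, which sense short-chain and long-chain fatty acids, changed by 1.01 and -0.57. Apart from Adora1, Gabbr1, Mc2r, Ntsr1, Lpar6, Oxtr, Sucnr1, Mrap and Adrb3, the genes of these paragraphs were named after their values were seen.

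Of 100 orphan and adhesion G protein-coupled receptors 12 rose and 6 fell. Adgrg2, an adhesion receptor known best from the epididymis, was at 7.87, 7.84, 7.14 and 6.99 in the fed rats and 9.53, 9.49, 10.06 and 9.68 in the phase 2 rats. This was the largest rise among the 488 receptors, 2.23 ± 0.21 (adjusted p = 5.16e-06). Of the 10 measured epididymis and testis markers limma called 0, with 2 at an unadjusted p below 0.05, and 9 of them lay near background. Gpr160 rose by 1.20 ± 0.129 and Adgrf5, an adhesion receptor of endothelium, by 0.93 ± 0.0846, and endothelial markers were higher as well (above). The part of endothelial cells in this rise was not tested. Among 19 chemokine receptors 4 were called, namely Cxcr6 (0.88), Cxcr5 (0.71, adjusted p = 0.0206), Ackr2 (-0.43, adjusted p = 0.048) and Cxcr2 (-1.89). Cxcr2 is itself one of 9 neutrophil markers, of which 2 fell and 7 lay near background in both groups (mean level per rat 5.62 to 5.71 in fed and 5.16 to 5.44 in phase 2 rats). The part of neutrophils was not tested.

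The insulin receptor gene rose while receptors of growth hormone and prolactin fell. Insr stood at 9.84, 10.00, 9.74 and 9.73 in the fed rats and 11.07, 11.02, 10.96 and 10.73 in the phase 2 rats, without overlap, and rose by 1.12 ± 0.0988 (adjusted p = 2.89e-06). Igf1r, the receptor of insulin-like growth factor 1, rose by 0.59 ± 0.136. Ghr, the growth hormone receptor, went from 11.90, 11.86, 11.75 and 11.86 in the fed rats to 10.95, 10.69, 10.55 and 10.72 in the phase 2 rats, a fall of 1.12 ± 0.148 (adjusted p = 9.67e-05). The related Prlr, the prolactin receptor, fell by 1.22 ± 0.123 to a level near background. Of the 51 receptor tyrosine kinases 12 were higher and 7 lower. The rises were Insr (1.12), Tek (0.80), Epha3 (0.80, adjusted p = 0.0464), Pdgfrb (0.76), Ntrk3 (0.73, adjusted p = 0.0321), Kit (0.73), Mertk (0.72), Igf1r (0.59), Kdr (0.56), Flt4 (0.46), Flt1 (0.44) and Fgfr3 (0.40). Tek, Kdr and Flt1 are themselves among the endothelial markers and Pdgfrb among those of pericytes, and Flt4 marks lymphatic endothelium; the part of these cells in the rises was not tested. Kit is also a marker of mast cells, of whose 7 markers 2 rose. The falls were Fgfrl1 (-0.95), Erbb3 (-0.86), Ptk7 (-0.73), Mst1r (-0.55), Egfr (-0.42), Axl (-0.39) and Fgfr1 (-0.23, adjusted p = 0.033), which are receptors or co-receptors of fibroblast growth factors, of the EGF family, and of Wnt, Gas6 and macrophage-stimulating protein ligands.

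Promoters of some of the genes that rose carried the letters TGTTTAC, the core of the element that FOXO factors bind. It was 1 of 13 motifs searched. FOXO factors are held out of the nucleus by insulin signalling and are known to drive Insr and the ubiquitin ligase gene Trim63. RefSeq promoters of assembly GRCr8, from 250 bases before to 50 after the start of transcription, could be matched for 11951 of the 14506 genes. The letters, searched on both strands, stood in 10 of the 137 promoters of genes at least 2-fold higher (7.3%), in 2 of 208 of genes at least 2-fold lower (0.962%) and in 2.86% of all. Over all called genes the letters stood in 53 of 1123 promoters of higher genes (4.72%) and in 30 of 1881 of lower genes (1.59%), a smaller gap than in the 2-fold sets. The 10 promoters of the genes at least 2-fold higher were those of Trim63, Cyp2b1, Gpnmb, Edn1, Scgb2a1, Mc2r, Pik3ip1, Insr, Hba-a3 and Tmem140. Among them, Scgb2a1 lay near background in both groups and Trim63 in fed rats, so that their changes give no exact fold. The limma call of Hba-a3 (adjusted p = 0.0286) was lost in 5 alternatives. Hba-a3 is also one of 5 measured erythroid markers, of which limma called 1 higher and 0 lower (at an unadjusted p below 0.05, 3 and 0). Their mean level per rat was 8.10 to 8.20 in fed and 8.56 to 8.93 in phase 2 rats. Gpnmb is one of 13 macrophage markers, and the part of blood cells and macrophages in these rises was not tested. A promoter with the letters had a median GC content of 49.2% and one without 58.3%, while the median was 58% for genes at least 2-fold higher and 58% for all. The palindromic cAMP response element, TGACGTCA, stood in 1.46%, 3.37% and 2.46% of the same sets of promoters, and the E-box CACGTG in 9.49%, 8.17% and 7.88%. The CHR motif TTTGAA stood in 10.9%, 21.6% and 15.2%, CCAAT in 40.9%, 44.7% and 38.3%, the E2F letters TTTCCCGC in 0.73%, 1.92% and 1.56%, the NRF1 element in 0%, 0.962% and 1.39%, the sterol element in 0.73%, 0.481% and 0.126%, and the CArG box in 0.73%, 1.92% and 1.28%. The DR1 and DR4 repeats of nuclear receptors, the glucocorticoid response element and the endoplasmic reticulum stress element matched at most 15 of all promoters. A match describes the letters and is not a binding site. The motifs were chosen with the changes known.

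Promoters of a receptor, a secreted peptide and a ubiquitin ligase that rose are shown with those letters in capitals, 5′ to 3′ on the strand of the gene, so that their place can be seen. Each held the letters 1 time, on the strand of the gene. Insr lies on the minus strand at chr12:6128754-6129053, Edn1, the gene of endothelin 1, on the minus strand at chr17:22666638-22666937 and Trim63 on the plus strand at chr5:151816986-151817285 of GRCr8.
Insr: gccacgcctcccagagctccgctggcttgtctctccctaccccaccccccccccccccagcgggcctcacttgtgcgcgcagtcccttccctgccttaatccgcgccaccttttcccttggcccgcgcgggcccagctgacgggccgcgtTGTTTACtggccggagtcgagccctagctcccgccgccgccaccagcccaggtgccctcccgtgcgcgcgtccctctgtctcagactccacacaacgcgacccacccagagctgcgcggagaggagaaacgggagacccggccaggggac
Edn1: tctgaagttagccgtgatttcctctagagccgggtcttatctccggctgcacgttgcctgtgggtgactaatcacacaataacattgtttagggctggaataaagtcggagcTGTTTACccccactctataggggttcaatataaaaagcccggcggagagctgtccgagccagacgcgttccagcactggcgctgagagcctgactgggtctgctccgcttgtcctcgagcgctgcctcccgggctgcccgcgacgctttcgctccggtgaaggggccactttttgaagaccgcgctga
Trim63: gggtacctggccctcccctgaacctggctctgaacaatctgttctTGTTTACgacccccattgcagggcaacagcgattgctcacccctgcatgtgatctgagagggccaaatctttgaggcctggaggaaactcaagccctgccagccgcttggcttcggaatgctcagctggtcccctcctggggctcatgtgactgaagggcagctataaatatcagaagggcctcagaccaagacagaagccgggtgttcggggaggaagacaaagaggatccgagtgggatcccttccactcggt

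Of 14 receptors of the TGF-beta family 8 were not called. The higher ones were 5, Acvr1c (1.11), Eng (0.64), Acvr2a (0.63), Acvr1b (0.31, adjusted p = 0.0308) and Tgfbr1 (0.30, adjusted p = 0.0392), and Bmpr1a, a receptor of bone morphogenetic proteins, was lower (-0.77). Acvr1c and Acvr1b are type I receptors of activins and related ligands, Acvr2a is a type II receptor, and Tgfbr1 is the type I receptor of TGF-beta. The activin receptors Acvr1 and Acvr2b differed by 0.09 and 0.16 and did not pass (adjusted p = 0.567 and adjusted p = 0.406). Eng, an accessory receptor of endothelium, stands beside higher endothelial markers, whose part was not tested. Acvr1c is also one of the 12 adipocyte markers. Among the ligands and antagonists of this family 11 of 48 rose and 6 fell, and 7 rose without fed rat 3 or without phase 2 rat 1. Those that rose were Gdf10 (1.47), Grem1 (1.38), Ltbp1 (1.07), Inhba (0.68), Fst (0.61), Gdf6 (0.60), Ltbp2 (0.57, adjusted p = 0.0193), Bmp8a (0.48), Tgfb2 (0.48, adjusted p = 0.0394), Tgfb3 (0.44, adjusted p = 0.045) and Sostdc1 (0.30, adjusted p = 0.0454). Inhba encodes the activin A subunit and Fst its antagonist follistatin, and Grem1 encodes gremlin, an antagonist of bone morphogenetic proteins. The falls were Bmp3 (-1.63), Chrdl1 (-1.10), Bmp7 (-1.01), Bmp1 (-0.67), Fstl1 (-0.53) and Ltbp3 (-0.37). Gdf10, a ligand related to Bmp3, was at 7.69, 7.93, 7.29 and 7.24 in the fed rats and 8.84, 8.98, 8.98 and 9.22 in the phase 2 rats and rose by 1.47 ± 0.187 (adjusted p = 7e-05).

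Il6st, which encodes gp130, the shared signal chain of the interleukin 6 family, and the genes of 3 chains that form receptors with it rose. Il6st rose by 0.39 ± 0.109 (adjusted p = 0.0173, the call lost in 3 alternatives), Lifr by 0.66 ± 0.128, Osmr by 0.67 ± 0.131 and Cntfr by 0.59 ± 0.167 (adjusted p = 0.0178, lost in 3). Il6r and Il11ra1, the chains that bind interleukins 6 and 11, differed by 0.21 and 0.26 and did not pass (adjusted p = 0.18 and adjusted p = 0.0973). The 4 rises stood among 10 rises and 4 falls in 46 cytokine and growth hormone class receptors. The falls were Prlr (-1.22), Ghr (-1.12), Il4r (-0.73) and Csf2ra (-0.43). In the TNF receptor family limma called 3 of 18 lower and 0 higher (at an unadjusted p below 0.05, 4 and 2), Tnfrsf11b (-0.58, adjusted p = 0.0254), Cd40 (-0.50) and Tnfrsf21 (-0.47). Of 20 integrins 7 fell and 2 rose. Itga7, the laminin-binding alpha-7 chain, stood at 10.54, 10.27, 10.56 and 10.45 in the fed rats and 8.95, 8.81, 8.89 and 8.97 in the phase 2 rats and fell by 1.55 ± 0.106. The leukocyte chains Itgam (-0.82, adjusted p = 0.0162), Itgal (-0.71) and Itgb7 (-0.58) fell as well. Itgam is also a chain of neutrophils, of whose 9 markers 2 were lower, both at least 2-fold, and 0 higher by limma (1 at an unadjusted p below 0.05), with the levels given above. Macrophage markers stood at 1 of 13 lower and 2 higher and T and NK cell markers at 0 of 13 called by limma (2 at an unadjusted p below 0.05). The part of these cells in the falls was not tested.

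Of 23 lipoprotein and scavenger receptors, a list that also holds receptors for iron proteins and haemoglobin, 7 rose and 4 fell. The rises were Gpihbp1 (0.88), Cd163 (0.78), Scara5 (0.52), Cd36 (0.43), Sort1 (0.38, adjusted p = 0.0396), Sorcs3 (0.32, adjusted p = 0.0421) and Scarb2 (0.31), and the falls Cubn (-0.74), Tfrc (-0.56), Vldlr (-0.43, adjusted p = 0.0443) and Lrp10 (-0.27, adjusted p = 0.027). Gpihbp1 carries lipoprotein lipase across the capillary wall, Cd36 takes up fatty acids, and Tfrc is the transferrin receptor that imports iron. Gpihbp1 is made by capillary endothelium, whose markers were higher, Cd163 is one of 13 macrophage markers and Cd36 one of the adipocyte markers; the part of these cells was not tested. Of the 21 plexins, neuropilins and related receptors Robo1 (0.73), Notch4 (0.44), Robo4 (0.44) and Notch3 (0.44, adjusted p = 0.0197) rose and Plxna3 (-0.87) and Unc5b (-0.83) fell. Robo4 is itself one of the endothelial markers and Notch3 one of those of smooth muscle and pericytes. Most markers of both lists were higher (above), and the part of these cells in the rises was not tested.

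**Figure D3:**
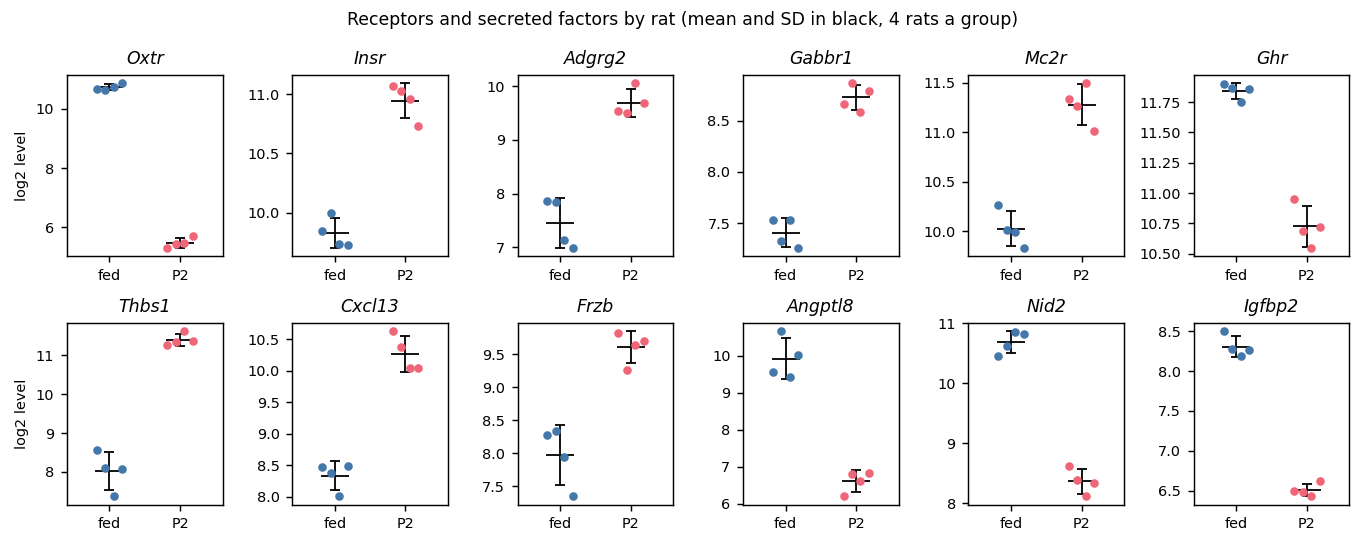
Log2 levels of 12 receptors and secreted factors in each of the 4 fed (blue) and 4 phase 2 rats (P2, red), with the group mean and SD in black; each panel has its own scale. The points of the groups do not overlap in any of the 12 panels, and Oxtr drops from 10.74 to 5.47.

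Among the adipokines and peptide hormones the largest falls were those of leptin and of Angptl8. Lep stood at 11.48, 11.30, 11.07 and 11.11 in the fed rats and 7.28, 6.68, 6.39 and 8.16 in the phase 2 rats and fell by 4.12 ± 0.308 (adjusted p = 6.84e-07). Angptl8, an insulin-induced protein that acts with its relatives to restrain lipoprotein lipase, was at 9.57, 10.66, 9.43 and 10.01 in the fed rats and 6.20, 6.82, 6.62 and 6.83 in the phase 2 rats and fell by 3.30 ± 0.228 (adjusted p = 3.18e-07). Angptl4, a fasting-induced inhibitor of the same lipase, moved the opposite way, from 9.15 ± 0.292 to 10.21 ± 0.176. Of 76 genes in this family 8 rose and 10 fell, and with arrays centred on their medians 10 and 9. The rises were Edn1 (1.38), Adm (1.19), Nampt (1.07), Angptl4 (1.06), C1qtnf1 (1.01), Ostn (0.90), Npy (0.90, adjusted p = 0.0214) and Metrnl (0.34, adjusted p = 0.0249), which include the vasoactive peptides endothelin 1 and adrenomedullin and neuropeptide Y. The falls were Lep (-4.12), Angptl8 (-3.30), Rarres2 (-1.54), C1qtnf6 (-1.41), Rbp4 (-1.01), Stc2 (-0.92), Apln (-0.86), Angptl2 (-0.74), C1qtnf3 (-0.58) and Scg5 (-0.38, adjusted p = 0.0225), with chemerin (Rarres2), retinol-binding protein 4 and apelin among them. Adiponectin, Adipoq, differed by -0.06 (adjusted p = 0.853).

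Fibroblast growth factors fell wherever they were called. Fgf1 (-1.18), Fgf9 (-1.09), Fgf2 (-0.78), Fgf10 (-0.63) and Fgf18 (-0.60, adjusted p = 0.0212) were the 5 called members, and limma called 0 FGF genes higher (0 at an unadjusted p below 0.05). They stood among 7 rises and 11 falls of 55 growth factors that act on receptor tyrosine kinases. These were 12.7% and 20% of that family, against 9.66% and 15.5% of all genes. FGF genes were not a family of their own here, so that no called share is given for them. Fgf1, which is known to be induced by feeding in fat, was at 8.96, 9.24, 8.75 and 8.89 in the fed rats and 7.53, 8.01, 7.59 and 7.98 in the phase 2 rats (adjusted p = 3.67e-05). Angpt4, a ligand of the endothelial receptor Tek, fell by 1.85 ± 0.196 and Angpt1 by 0.58 ± 0.199 (adjusted p = 0.0445, lost in 9 alternatives), while Tek itself rose (above). Hbegf (0.86), Pdgfb (0.69), Vegfd (0.69) and Vegfa (0.41, adjusted p = 0.0192) rose. In the insulin-like growth factor system Igf1 fell by 0.51 ± 0.0911. Of 9 binding proteins Igfbp2, Igfbp5 and Igfbp4 fell (-1.80, -0.88 and -0.58) and Igfbp3 rose (0.76). Igfbp2 stood at 8.50, 8.27, 8.19 and 8.26 in the fed rats and 6.50, 6.48, 6.43 and 6.62 in the phase 2 rats.

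Of the 32 Wnt ligands and antagonists 4 rose and 4 fell, or 12.5% each way, against 9.66% higher and 15.5% lower of all genes. The rises were of secreted antagonists or of a relative of them, Frzb (1.64), Dkk3 (0.87), Sfrp5 (0.48) and Wif1 (0.47). Frzb and Sfrp5 bind Wnt proteins through a frizzled-like domain, Wif1 binds them through its own domain, and Dkk3 is a divergent member of the dickkopf family. The 4 falls were Dkk2 (-0.83), Wnt5a (-0.61), Rspo3 (-0.54) and Rspo1 (-0.40, adjusted p = 0.0448), a list with the ligand Wnt5a and the R-spondins, which strengthen Wnt signals, and also with the antagonist Dkk2. Frzb was at 8.27, 8.33, 7.93 and 7.34 in the fed rats and 9.83, 9.26, 9.64 and 9.71 in the phase 2 rats and rose by 1.64 ± 0.236 (adjusted p = 0.000182). On the receiving side Fzd1 (1.18) and the co-receptor Lrp6 (0.69) rose, and limma called 0 of the 11 frizzleds and co-receptors lower (1 at an unadjusted p below 0.05).

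Cxcl13, Ccl19 and Ccl21, chemokines of lymphoid tissue, rose. Cxcl13, which attracts B cells, was at 8.48, 8.38, 8.01 and 8.50 in the fed rats and 10.63, 10.37, 10.03 and 10.04 in the phase 2 rats and rose by 1.93 ± 0.284 (adjusted p = 0.000224). Ccl19 and Ccl21, the ligands of Ccr7, rose by 1.45 ± 0.261 and 0.95 ± 0.289 (for Ccl21 adjusted p = 0.0269, lost in 5 alternatives), while Ccr7 differed by 0.15 (adjusted p = 0.37). In all 7 of 35 chemokines were higher, the others being Cxcl14 (0.83, adjusted p = 0.0186), Cx3cl1 (0.62), Cxcl16 (0.47) and Ccl6 (0.44), and 1, Cxcl11, was lower (-0.52, adjusted p = 0.0229), near background in both groups. Of 4 measured B cell markers limma called 0 higher and 1 lower (at an unadjusted p below 0.05, 1 and 1), and 2 were near background in both groups. The mean level of the 4 markers per rat was 5.38 to 5.68 in fed and 5.41 to 5.68 in phase 2 rats. The part of B cells was not tested. Of the 55 interleukins, interferons and TNF family ligands 3 rose and 6 fell (5 and 3 with arrays centred on their medians), and 35 of them were near background in both groups.

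The matrix around the cells changed in both directions. Thbs1, the matrix glycoprotein thrombospondin 1, stood at 8.56, 8.09, 7.37 and 8.09 in the fed rats and 11.27, 11.33, 11.63 and 11.38 in the phase 2 rats and rose by 3.37 ± 0.206 (adjusted p = 1.16e-07). Of 40 matricellular and microfibril proteins 10 rose and 10 fell, a called share of 50%. The rises were Thbs1 (3.37), Tnr (1.94), Prg4 (1.62), Ccn2 (1.60), Ccn3 (1.05, adjusted p = 0.0163), Smoc1 (1.04), Spp1 (0.97, adjusted p = 0.0237), Ccn5 (0.78), Sparcl1 (0.62) and Fbln5 (0.44), with 3 members of the CCN family, Ccn2, Ccn3 and Ccn5. The falls were Nid2 (-2.32), Fbn1 (-1.17), Mfap2 (-1.08), Fn1 (-0.97), Mfap5 (-0.87), Efemp2 (-0.61), Smoc2 (-0.58), Tgfbi (-0.46), Sparc (-0.38) and Efemp1 (-0.38, adjusted p = 0.0321), with fibronectin (Fn1), fibrillin 1 (Fbn1), which carries the hormone asprosin at its end, and 2 proteins of the same microfibrils, Mfap2 and Mfap5. Nid2, a basement membrane nidogen, was at 10.46, 10.61, 10.85 and 10.82 in the fed rats and 8.62, 8.39, 8.11 and 8.35 in the phase 2 rats and fell by 2.32 ± 0.117 (adjusted p = 2.07e-08). Of 31 proteoglycans and laminins 8 fell, led by versican, Vcan, which fell by 2.21 ± 0.17, and 1 rose, Omd (1.55). Fibroblast and progenitor markers, with Mfap5 among them, were lower in 5 of 12 cases, and their part in these falls was not tested.

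The called share was 16% for secreted proteases and 15.9% for protease inhibitors, against 25.2% of all genes, and 69 of 125 proteases and 54 of 82 inhibitors were near background in both groups. Mmp15, a membrane-bound matrix metalloproteinase, fell by 1.98 ± 0.138, Adamts5, which cuts versican, by 1.06 ± 0.0904 and Adamts19 by 1.86 ± 0.137, to near background. Among the inhibitors the collagen chaperone Serpinh1 and the anti-angiogenic Serpinf1 fell (-1.16 and -0.92), and Timp4 and Timp3 rose (0.79 and 0.37). Of these inhibitors 8 fell and 5 rose, with 6 and 7 after centring the arrays on their medians, and the 8 falls became 4 to 5 without fed rat 3, fed rat 4, phase 2 rat 1 or phase 2 rat 2. Of 38 semaphorins, netrins, ephrins and Notch ligands 7 fell, among them Sema3c (-1.20) and Sema3d (-1.05), and 3 rose. Apoe, the apolipoprotein that macrophages and adipocytes secrete with cholesterol, rose by 0.88 ± 0.111, one of 3 rises among 30 apolipoproteins and secreted lipases.

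Rises outnumbered falls in 10 of the 12 families of transcription factors, and so they did under each scaling for these 10. Of 39 nuclear receptors 8 were higher, Nr4a3 (1.80), Nr1h3 (0.95), Rxrg (0.92), Nr3c2 (0.75), Vdr (0.47, adjusted p = 0.00962), Nr4a2 (0.47, adjusted p = 0.0234), Rarg (0.33, adjusted p = 0.0241) and Nr2c2 (0.28, adjusted p = 0.0195), and 5 lower, Esr1 (-1.22), Esrrg (-1.21), Nr5a2 (-0.63), Nr2f6 (-0.50, adjusted p = 0.0181) and Rara (-0.30, adjusted p = 0.0192). Nr4a3, an immediate early orphan receptor that responds to cAMP, was at 5.24, 5.32, 5.56 and 5.22 in the fed rats and 6.83, 7.50, 7.51 and 6.71 in the phase 2 rats, near background in the fed rats, and rose by 1.80 ± 0.253 (adjusted p = 0.000148). Rxrg is a partner of many nuclear receptors and Nr3c2 is the mineralocorticoid receptor, which also binds glucocorticoids. Esr1, the oestrogen receptor alpha, stood at 9.31, 9.16, 9.58 and 9.50 in the fed rats and 8.76, 8.09, 7.68 and 8.13 in the phase 2 rats and fell by 1.22 ± 0.235 (adjusted p = 0.00157). Esrrg, an oestrogen-related receptor of oxidative metabolism, fell by 1.21 ± 0.106. Pparg, the master factor of adipocytes, differed by -0.25 and did not pass (adjusted p = 0.164).

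The gene of the liver X receptor alpha rose, and genes known as its targets moved in both directions. Nr1h3, which encodes this sensor of oxysterols, was at 9.50, 9.53, 9.41 and 9.51 in the fed rats and 10.39, 10.45, 10.70 and 10.23 in the phase 2 rats and rose by 0.95 ± 0.16 (adjusted p = 0.000585). Abca1 and Abcg1, the transporters that hand cholesterol to apolipoproteins and lipoproteins, rose by 1.79 ± 0.16 and 1.85 ± 0.146. Abca1 stood at 8.18, 8.73, 8.54 and 8.40 in the fed rats and 10.56, 10.31, 10.35 and 9.79 in the phase 2 rats, and Abcg1 at 8.63, 8.53, 8.62 and 8.02 in the fed rats and 10.15, 10.25, 10.52 and 10.28 in the phase 2 rats. Mylip, whose product marks the LDL receptor for breakdown, rose by 1.30 ± 0.104 and lies outside the 4 roles. Srebf2, which drives cholesterol synthesis, fell by 0.80 ± 0.0749. Macrophages also express these transporters, and macrophage markers held 2 rises and 1 fall among 13, with a mean level per rat of 8.87 to 9.13 in fed and 8.94 to 9.25 in phase 2 rats; their part was not tested. Other genes known as targets of this receptor fell, Scd (-5.20), Fasn (-4.48), Scd2 (-1.56), Mlxipl (-1.37) and Lpcat3 (-0.28, adjusted p = 0.0393), which serve fatty acid synthesis and, for Lpcat3, the remodelling of phospholipids. Nr1h3, Mylip and Lpcat3 were named after their values were seen.

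Of 25 KLF, SP and EGR factors limma called 6 higher and 0 lower (at an unadjusted p below 0.05, 7 and 0), Klf15 (1.24), Klf11 (0.90), Klf9 (0.57, adjusted p = 0.0494), Sp4 (0.45), Klf2 (0.36, adjusted p = 0.014) and Klf3 (0.31, adjusted p = 0.0143). Klf15 and Klf9 are known to be induced by glucocorticoids. Klf15 was at 6.41, 5.87, 6.08 and 5.86 in the fed rats and 7.19, 7.49, 7.07 and 7.42 in the phase 2 rats (adjusted p = 5.5e-05). Of 29 forkhead factors 6 rose, Foxo1 (0.60), Foxo3 (0.51), Foxp1 (0.49, adjusted p = 0.0159), Foxj3 (0.34), Foxk1 (0.32) and Foxj2 (0.30, adjusted p = 0.0165), and Foxm1, a factor of dividing cells, fell (-0.36, adjusted p = 0.0293). Foxo1 stood at 8.38, 8.30, 8.22 and 8.19 in the fed rats and 8.95, 9.05, 8.52 and 8.98 in the phase 2 rats, with the groups apart, and rose by 0.60 ± 0.108 (adjusted p = 0.000929). Of 36 co-regulators 5 rose, Ncoa1 (0.67), Ppargc1a (0.59, adjusted p = 0.0323), Ep300 (0.44), Crebbp (0.34) and Crtc2 (0.27, adjusted p = 0.0214). Ep300 and Crebbp are the paired histone acetyltransferases p300 and CBP, and Crtc2 is the cAMP-regulated partner of CREB. Ppargc1a was near background in both groups.

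Some factors that respond to sugar or to the secretory load fell. Mlxipl, the carbohydrate-responsive factor ChREBP, stood at 8.72, 8.94, 9.04 and 9.03 in the fed rats and 7.49, 7.53, 7.42 and 7.79 in the phase 2 rats and fell by 1.37 ± 0.132 (adjusted p = 5.94e-06). Bhlhe40, a repressor of the circadian clock, fell by 1.34 ± 0.246. Creb3l1, a membrane-bound factor that supports collagen secretion, fell by 1.38 ± 0.0856, and its relatives Creb3 (-0.45) and Creb3l2 (-0.42), Atf5 (-0.44) and Xbp1 (-0.30, adjusted p = 0.0462) made up the other falls among 43 bZIP factors, of which 9 rose. In the bHLH and PAS family 14 of 65 rose and 6 fell, and 1 of the rises, not named here, was at least 2-fold. The smaller rises held the hypoxia-inducible factor Epas1 (0.81), the melanocyte and lysosome factor Mitf (0.98), the MYC antagonist Mxi1 (0.88) and the inhibitors of differentiation Id1 (0.95), Id4 (0.67) and Id2 (0.55).

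Irf4, an interferon regulatory factor that fasting is known to induce in adipocytes, had the largest change among the 697 genes matched by symbol as transcription factors, 2.39. Its spread was wide among the phase 2 rats (SD 0.82) and wider among the phase 3 rats (SD 2.3), which share the model's estimate of the spread. Its level was 6.14, 6.25, 5.97 and 6.33 in the fed rats and 8.94, 9.43, 7.52 and 8.37 in the phase 2 rats. In the phase 3 rats it was 10.99, 6.10, 10.67 and 10.37. The call of Irf4 (adjusted p = 0.0438) was lost in 10 of the 21 alternatives, but kept with only the fed and phase 2 arrays and without phase 3 rat 2. Factors of vascular cells rose, Sox17 (1.15), Sox18 (0.86), Erg (0.53) and Fli1 (0.35, adjusted p = 0.0216), beside endothelial markers with 8 of 11 higher, and Myocd, the smooth muscle coactivator (0.87), beside smooth muscle markers with 10 of 12 higher; the part of these cells was not tested. Homeobox factors, 109 genes, showed 9 rises and 3 falls, with 3 to 5 rises without fed rat 1 or phase 2 rats 1, 2 or 3, and 51 of them were near background in both groups. In the E2F and MYB family E2f1 (-0.73), E2f3 (-0.50, adjusted p = 0.024) and Mybl2 (-0.40, adjusted p = 0.0363) fell and Rbl2, a pocket protein of resting cells, rose (0.46). Of 205 ZFP, ZBTB and ZNF zinc-finger factors 26 rose, at most by 1.01 for the glucocorticoid-induced Zbtb16 (adjusted p = 0.0135), and 7 fell; 15 rose without phase 2 rat 2, and 46 with arrays centred on their medians.

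**Figure D4:**
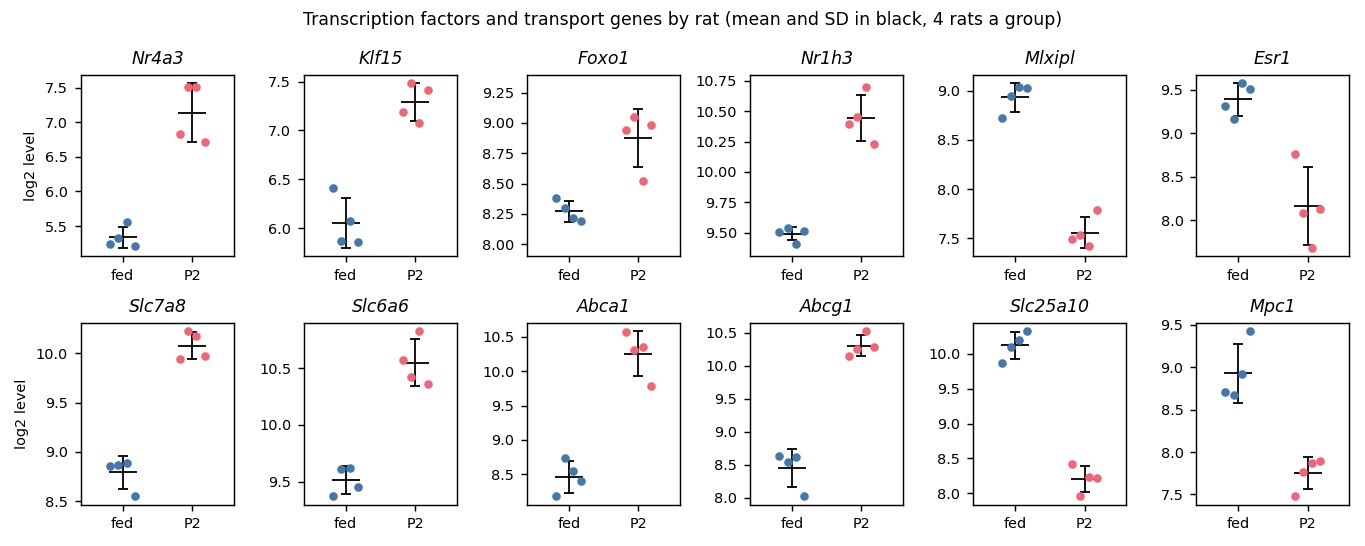
Log2 levels of 12 transcription factors and transport genes in each of the 4 fed (blue) and 4 phase 2 rats (P2, red), with the group mean and SD in black and a separate scale in each panel. Points of the groups do not overlap in any panel, and the changes of the transport genes Slc25a10 (-1.91) and Abcg1 (1.85) exceed those of Foxo1 (0.60).

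Transport across the plasma membrane changed gene by gene within families. Of 58 genes matched by symbol as amino acid carriers 9 rose and 8 fell, and 5 rose without fed rat 3, fed rat 4 or phase 2 rat 1. This list also holds carriers of other substrates, Slc6a4, Slc15a2 and Slc43a3 among them. The rises were Slc7a8 (1.28), Slc6a6 (1.03), Slc43a1 (0.94), Slc43a3 (0.87), Slc3a2 (0.65), Slc15a2 (0.55, adjusted p = 0.0478), Slc1a3 (0.49, adjusted p = 0.0292), Slc6a17 (0.32, adjusted p = 0.0478) and Slc7a3 (0.28, adjusted p = 0.038), and the falls Slc7a15 (-2.22), Slc6a4 (-1.15), Slc1a5 (-0.77), Slc1a1 (-0.68, adjusted p = 0.0267), Slc36a1 (-0.51), Slc7a7 (-0.38), Slc38a7 (-0.37) and Slc43a2 (-0.32, adjusted p = 0.0453). Slc7a8 carries large neutral amino acids together with the shared heavy chain Slc3a2, and Slc43a1 carries branched-chain amino acids. Slc7a8 was at 8.86, 8.87, 8.89 and 8.55 in the fed rats and 9.94, 10.22, 10.17 and 9.97 in the phase 2 rats and rose by 1.28 ± 0.104 (adjusted p = 1.43e-06). Slc6a6, the taurine carrier, was at 9.37, 9.61, 9.62 and 9.46 in the fed rats and 10.58, 10.43, 10.83 and 10.36 in the phase 2 rats and rose by 1.03 ± 0.109. Slc7a15, a relative of the same light chains, stood at 9.30, 9.42, 9.01 and 9.58 in the fed rats and 7.00, 6.91, 7.23 and 7.32 in the phase 2 rats and fell by 2.22 ± 0.127, and the glutamine carrier Slc1a5 by 0.77 ± 0.118. Slc16a10, a carrier of aromatic amino acids and thyroid hormone that belongs to the monocarboxylate family by sequence, was at 7.54, 7.43, 7.67 and 7.43 in the fed rats and 9.39, 9.49, 9.47 and 9.43 in the phase 2 rats and rose by 1.93 ± 0.135 (adjusted p = 3.52e-07).

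Sugar and monocarboxylate carriers fell in 10 of 37 cases and rose in 3. Slc2a4, the insulin-dependent glucose carrier GLUT4, was at 9.10, 9.73, 9.56 and 9.72 in the fed rats and 7.71, 7.36, 7.93 and 7.60 in the phase 2 rats and fell by 1.88 ± 0.155 (adjusted p = 1.66e-06). Slc37a4, which moves glucose 6-phosphate into the endoplasmic reticulum, fell by 1.57 ± 0.124 and Slc16a1, the lactate and ketone body carrier MCT1, by 1.04 ± 0.1. Slc16a14, an orphan of the same family, fell by 2.31 ± 0.381. The rises were Slc16a10 (1.93), Slc2a3 (0.64) and Slc2a2 (0.24, adjusted p = 0.0445), of which Slc2a3 is the glucose carrier GLUT3 and Slc2a2 was near background in both groups.

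In the mitochondrial membrane the carriers of pyruvate, citrate and dicarboxylates fell. Both subunits of the mitochondrial pyruvate carrier were lower. Mpc1 was at 8.71, 8.67, 8.92 and 9.43 in the fed rats and 7.48, 7.76, 7.87 and 7.90 in the phase 2 rats and fell by 1.18 ± 0.156, and Mpc2 fell by 0.63 ± 0.209 (adjusted p = 0.0405, lost in 9 alternatives). Slc25a10, the dicarboxylate carrier, stood at 9.87, 10.09, 10.19 and 10.33 in the fed rats and 8.42, 7.95, 8.23 and 8.21 in the phase 2 rats and fell by 1.91 ± 0.226 (adjusted p = 3.79e-05). Slc25a1, the citrate carrier that exports carbon for fat synthesis, fell by 1.29 ± 0.161. Its change depended on the processing, from -1.44 to -0.75 over the 21 alternatives, though its call was kept in each. The adenine nucleotide carriers Slc25a5 and Slc25a4 fell by 0.69 ± 0.0821 and 0.30 ± 0.0746 (for Slc25a4 adjusted p = 0.00844, lost in 1 alternative). In all 10 of 44 mitochondrial carriers fell and 5 rose, against 9 and 9 with arrays centred on their medians. The rises were Slc25a32 (0.99), Slc25a34 (0.70), Slc25a42 (0.68), Slc25a2 (0.39, adjusted p = 0.031) and Ucp2 (0.30, adjusted p = 0.0485), among which Slc25a42 carries coenzyme A and Slc25a32 folate or FAD. The machinery that imports proteins into mitochondria fell in 12 of 28 cases, between -0.27 and -0.76, and rose in 1, Tomm34 (0.22, adjusted p = 0.033).

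Fatty acid carriers and lipid-binding proteins rose and fell in 9 of 54 cases each, with 9 rises and 6 falls after centring the arrays on their medians and with 5 falls without fed rat 1. Slc27a2, a very long chain acyl-CoA synthetase and carrier, was at 4.76, 5.30, 5.55 and 4.88 in the fed rats and 8.69, 8.48, 9.23 and 8.26 in the phase 2 rats, near background in the fed group mean, and rose by 3.54 ± 0.394 (adjusted p = 2.23e-05). Its relative Slc27a1 rose by 1.06 ± 0.191 and Slc27a3 fell by 2.03 ± 0.177. Osbpl11, an oxysterol-binding protein relative, rose by 1.08 ± 0.115, and Dbi, the acyl-CoA binding protein that is also released as a peptide, fell by 1.65 ± 0.178. Among 44 ABC transporters 6 rose and 11 fell, against 8 and 7 with arrays centred on their medians, and 7 fell without fed rat 1 or phase 2 rat 2. Beside Abca1 and Abcg1 the rises were Abcb1a (1.26), Abcg2 (0.77), Abcc9 (0.57) and Abca8a (0.33).

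Metal carriers fell in 13 of 35 cases and rose in 1, the iron carrier of phagosomes, Slc11a1 (0.38, adjusted p = 0.0401). Zinc carriers of the Golgi and endoplasmic reticulum were among those that fell, Slc39a13 (-1.05), Slc39a7 (-0.75), Slc30a5 (-0.33), Slc30a6 (-0.49) and Slc30a7 (-0.30, adjusted p = 0.0173), as were the copper carriers Slc31a2 (-0.98) and Slc31a1 (-0.41). Carriers of nucleosides, nucleotide sugars and vitamins fell in 9 of 39 cases and rose in 1, Slc46a3 (0.61). They included the nucleotide sugar and sulfate donor carriers of the Golgi and endoplasmic reticulum Slc35b1 (-0.69), Slc35b4 (-0.46), Slc35b2 (-0.46) and Slc35a2 (-0.45), and Slc23a2, the vitamin C carrier (-0.44). RAB GTPases and SNARE proteins of vesicle traffic fell in 23 of 114 cases and rose in 4, with the SNARE genes Ykt6 at -1.64 and Sec22b at -0.76. Among 54 nuclear import and export genes 18 fell and 5 rose, with Kpna2 at -0.95, Kpnb1 at -0.64 and the GTPase Ran at -0.74. These called shares lower, 37.1% for metal carriers, 33.3% for nuclear transport, 42.9% for mitochondrial import and 20.2% for vesicle traffic, stand against 15.5% of all genes. Falls outnumbered rises in these families under each of the scalings tried.

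The called share was 10.5% for potassium channels and 21.6% for sodium, calcium and TRP channels, against 25.2% of all genes. Of 86 potassium channels 5 rose and 4 fell, and 48 were near background in both groups. Of 88 sodium, calcium and TRP channels and related genes 11 rose and 8 fell, and 5 to 6 rose without fed rat 3, fed rat 4 or phase 2 rat 1. Kcnmb1 and Kcnma1, the subunits of the large-conductance potassium channel of smooth muscle, rose (1.12 and 0.91), as did Cacna1c, the pore of the L-type calcium channel (0.50), and Pln, the regulator of the calcium pump (1.17). Smooth muscle markers were higher in 10 of 12 cases, and their part was not tested. Scn7a, a sodium channel of unusual gating, rose by 1.30 ± 0.293. Mcu, the calcium uniporter of mitochondria, fell by 0.86 ± 0.106 and the ATP-gated channel gene P2rx5 by 1.11 ± 0.097. Slc22a3, the organic cation carrier that clears noradrenaline, was at 9.37, 9.63, 9.49 and 9.80 in the fed rats and 7.73, 7.25, 7.10 and 7.43 in the phase 2 rats and fell by 2.19 ± 0.141 (adjusted p = 1.68e-07).

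Outside these roles the largest rise with no overlap between the groups was that of Cyp2e1, a cytochrome P450, at 5.10, 5.51, 4.74 and 4.85 in the fed rats and 11.36, 11.62, 11.64 and 10.97 in the phase 2 rats (6.35). Gulo, the last enzyme of vitamin C synthesis (4.19), Trim63 (2.31) and Zim1, an imprinted zinc-finger gene that the symbol lists of transcription factors did not match (2.62), rose as well. The fed means of these 4 genes lay near background, so that their changes give no exact fold. Rises from a level above it were those of Calml3, a calmodulin-like protein (3.94), Pdk4, the kinase that shuts pyruvate dehydrogenase (3.05), Acacb, the acetyl-CoA carboxylase of mitochondria (3.04), B3galt1, a galactosyltransferase (2.66), and Trhde, the ectoenzyme that degrades thyrotropin-releasing hormone (2.42). Among the largest falls outside the roles were those of Pnpla3, a lipid droplet protein (-5.27), and of 3 genes of fatty acid synthesis, Scd, Fasn and Elovl6 (-5.20, -4.48 and -2.53). They were joined by the imprinted gene Mest (-3.44), Me1, the cytosolic malic enzyme (-3.09), Pygl, the liver-type glycogen phosphorylase (-2.44), the galectin relative Grifin (-2.39) and the complement component C6 (-2.44). C6 was at 11.15, 10.72, 10.77 and 11.44 in the fed rats and 8.35, 8.76, 8.32 and 8.90 in the phase 2 rats. Npr3, the clearance receptor of natriuretic peptides, fell by 1.39 ± 0.151, and Ramp1, a partner of the calcitonin receptor-like receptor, fell by 1.37 ± 0.123; both were named after their values were seen.

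Some genes had a level in phase 2 that lay apart from both other groups. These were taken as the genes called in phase 2 against fed and in phase 3 against phase 2 with the largest differences, so that their extreme level in phase 2 is a description and not a test. Over all genes 27.9% were called in phase 3 against phase 2. The 5 highest in phase 2 were Calml3, Trhde, Tmeff1, Bin2a and Gdf10. Tmeff1, a membrane protein with follistatin-like domains, was at 9.97, 10.19, 10.25 and 10.05 in phase 2, against 8.24, 8.17, 8.51 and 8.11 in fed and 8.98, 8.53, 7.98 and 8.09 in phase 3 rats. It was lower in phase 3 than in phase 2 by 1.72 ± 0.177. Gdf10 was at 8.84, 8.98, 8.98 and 9.22 in phase 2, against 7.69, 7.93, 7.29 and 7.24 in fed and 6.94, 7.71, 6.94 and 6.88 in phase 3 rats, and its phase 3 rats lay below its phase 2 rats without overlap. Trhde was at 9.36, 9.39, 8.97 and 9.09 in phase 2, against 6.78, 6.81, 6.77 and 6.75 in fed and 8.93, 7.61, 7.07 and 6.94 in phase 3 rats. In Bin2a the call against fed was lost in 7 alternatives (adjusted p = 0.025), and phase 3 rat 1 was at 9.43 while the other phase 3 rats were at 6.21, 7.58 and 7.46.

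The 5 lowest in phase 2 were C6, Parm1, Hoga1, Mrap and Scd2. Parm1, a mucin-like membrane protein, was at 7.95, 7.68, 7.66 and 7.36 in phase 2, against 9.15, 9.49, 9.27 and 9.70 in fed and 9.67, 9.98, 9.53 and 9.44 in phase 3 rats. Hoga1 encodes a mitochondrial enzyme of hydroxyproline breakdown, and was at 6.98, 6.80, 7.06 and 6.81 in phase 2, against 8.75, 8.50, 8.47 and 8.49 in fed and 7.99, 8.67, 8.95 and 9.10 in phase 3 rats. Mrap was at 5.75, 6.14, 6.29 and 6.62 in phase 2, against 8.35, 8.21, 8.03 and 8.61 in fed and 7.68, 7.81, 7.55 and 7.52 in phase 3 rats, higher in phase 3 than in phase 2 by 1.44 ± 0.161. Mc2r, the receptor that its product serves, had the mirrored order, at 11.34, 11.27, 11.50 and 11.01 in phase 2, against 10.26, 10.02, 9.99 and 9.83 in fed and 9.93, 10.24, 9.89 and 9.81 in phase 3 rats, and was lower in phase 3 than in phase 2 by 1.31 ± 0.124 (adjusted p = 4.02e-06). Other rises of phase 2 went further in phase 3, such as those of Klf15, from 7.29 ± 0.194 to 8.45 ± 0.279, and Nr4a3, from 7.14 ± 0.431 to 9.56 ± 0.588 (SD, n = 4), with adjusted p = 6.92e-05 and adjusted p = 9.18e-06.

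**Figure D5:**
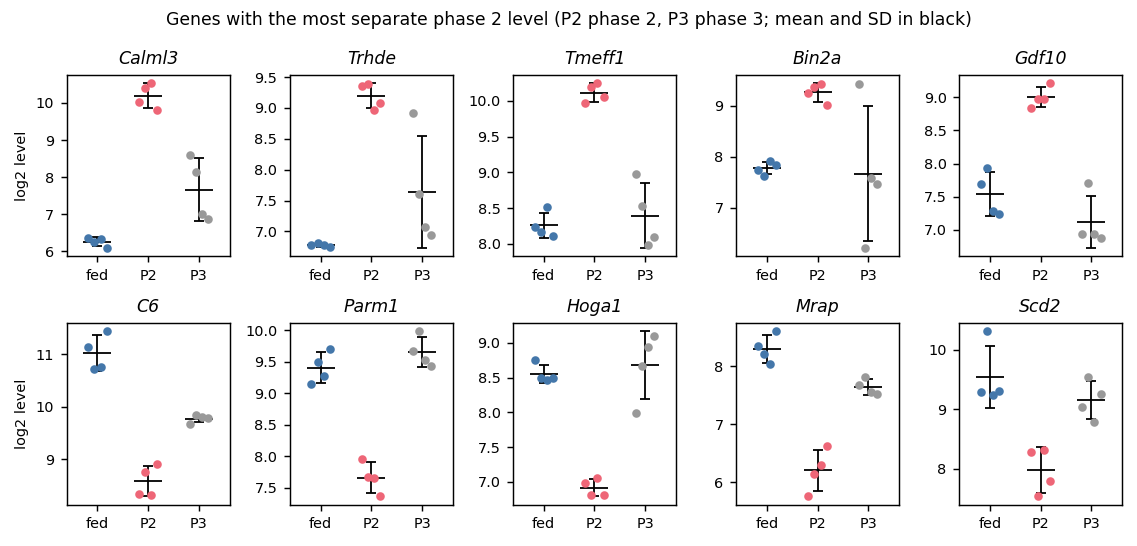
Log2 levels in each of 4 fed (blue), 4 phase 2 (P2, red) and 4 phase 3 rats (P3, grey) of the 5 genes highest (upper row) and the 5 lowest (lower row) in phase 2 relative to both other groups, with mean and SD in black and a separate scale in each panel. The genes were chosen for this pattern; phase 3 rat 1 lies apart in Trhde and Bin2a.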

How the data were processed

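RNA of 12 fat pads was hybridised to Affymetrix Rat Gene 1.0 ST arrays, 1 a rat. The deposited log2 values, 1 per probe set, were made by the authors with GCOS, RMA and Affymetrix Expression Console 1.1, per the submitters' processing notes; a genome build was not given in the sources used here. RMA equalises the arrays, so that a change in total RNA cannot be seen (array medians 6.026 to 6.132). Of 29215 probe sets 15310 named 1 gene in the platform annotation, 323 several and 13582 none; the brightest probe set stood for each of 14506 genes, of which 14481 matched RefSeq. limma 3.58.1 (R 4.3.3; lmFit, eBayes) was fitted to all 12 arrays without covariates, tested on simulated data, with Benjamini-Hochberg adjustment over all genes and a threshold of 0.05; values after ± are SE unless marked SD. A gene is higher or lower ("rose", "fell") where it passed. p-values measure the spread between these rats. Families and marker lists were matched by symbol, and motifs in RefSeq promoters. Members and lists were chosen with earlier results of these data known. Named were the 12 largest rises and the 12 largest falls without overlap, 6 each per role, at most 3 members per family by smallest adjusted p, 5 genes extreme in phase 2 each way, and Lep, Adipoq, Insr, Adrb3, Pparg, Slc2a4, Angptl4, Foxo1 and Klf15 (Lepr, in the same rule, was not analysed here). Elsewhere either all called members of a family are listed, or a gene given by its change alone was chosen after its values were seen. Alternatives changed the arrays fitted, scaling, variance prior, filter on dim genes, probe set rule and replicate block, or left out 1 rat.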

Additional observations from a re-analysis of the deposited data

Results flagged for a closer look

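In 44 of the 736 groups of 4 rats examined (368 named genes in fed and in phase 2 rats), 1 rat stood apart from the other 3 by Dixon's test. Chance alone gives about 1 in 20 such groups. Each rat was concerned between 4 and 9 times, fed rat 2 the most often. Fed rat 1 lay below the others with Itgb7 at 6.27 (others 6.69 to 6.76). Fed rat 1 lay above the others with Acvr1 at 8.38 (others 8.29 to 8.30), Chrdl1 at 11.01 (others 10.84 to 10.86), Cxcr5 at 6.56 (others 5.98 to 6.01), Hoga1 at 8.75 (others 8.47 to 8.50) and Tead1 at 7.67 (others 7.49 to 7.51). Fed rat 2 lay below the others with Angptl4 at 8.72 (others 9.27 to 9.32), Dbi at 9.41 (others 9.96 to 10.03), Foxk1 at 7.28 (others 7.32 to 7.33), Ptger3 at 9.30 (others 9.47 to 9.51) and Slc1a3 at 9.62 (others 9.87 to 9.92). Fed rat 2 lay above the others with Adra2c at 7.64 (others 7.43 to 7.44), Cxcl16 at 9.83 (others 9.37 to 9.42), Scd2 at 10.31 (others 9.24 to 9.31) and Slc30a6 at 8.19 (others 8.09 to 8.10). Fed rat 3 lay below the others with Adamts5 at 10.43 (others 10.51 to 10.52), Efemp1 at 11.73 (others 11.87 to 11.89) and Nampt at 8.98 (others 9.08 to 9.08). Fed rat 3 lay above the others with Slc46a3 at 7.00 (others 6.59 to 6.63). Fed rat 4 lay below the others with Abcg1 at 8.02 (others 8.53 to 8.63), Dkk2 at 7.31 (others 7.68 to 7.69), Rspo3 at 6.68 (others 7.09 to 7.18), Slc7a7 at 7.64 (others 7.79 to 7.80), Slc7a8 at 8.55 (others 8.86 to 8.89) and Vegfa at 8.71. Phase 2 rat 1 lay below the others with Slc25a4 at 11.07 (others 11.25 to 11.28). Phase 2 rat 1 lay above the others with Creb3l2 at 8.26 (others 8.09 to 8.11), Lrp6 at 10.46 (others 9.90 to 9.99) and Slc23a2 at 7.70 (others 7.41 to 7.44). Phase 2 rat 2 lay below the others with Ackr2 at 7.46 (others 7.94 to 7.99), Efemp2 at 8.10 (others 8.49 to 8.55), Itgal at 6.33 (others 6.95 to 6.99), Slc1a5 at 10.17 (others 10.49 to 10.55) and Slc25a1 at 7.75 (others 8.10 to 8.13). Phase 2 rat 2 lay above the others with Gipr at 6.69 (others 6.42 to 6.45). Phase 2 rat 3 lay below the others with Acvr2b at 5.07 (others 5.31 to 5.35), Klf9 at 8.70 (others 9.44 to 9.55) and Timp4 at 9.59 (others 10.02 to 10.06). Phase 2 rat 3 lay above the others with Slc3a2 at 11.45 (others 11.28 to 11.30). Phase 2 rat 4 lay below the others with Fli1 at 9.04 (others 9.33 to 9.38), Itgb7 at 5.91 (others 6.07 to 6.10) and Sp4 at 6.99 (others 7.14 to 7.17). Phase 2 rat 4 lay above the others with Bmp8a at 6.25 (others 5.91 to 5.96) and Vcan at 7.16 (others 6.79 to 6.83).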

How the results depend on the processing

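The 10 counts over all genes and the 4 roles were recomputed under 21 alternatives. They stayed within 1.5 times their value, except that without fed rat 4 the 80 transport genes called higher became 51. With 1 rat left out at a time the counts higher and lower ranged from 1001 to 1664 and from 1828 to 2470 for all genes, from 68 to 85 and from 39 to 54 for receptors, from 59 to 79 and from 74 to 97 for secreted factors, from 78 to 126 and from 30 to 42 for transcription factors, and from 51 to 91 and from 119 to 162 for transport. Of 106 family counts, higher and lower, 54 moved by over 1.5 times in at least 1 alternative, but 11 of the 35 with at least 8 calls. Of the 359 named genes that were called, 285 were called in every alternative that tested them and 74 lost the call in at least 1. 72 of these lost it with 1 rat left out. Leaving out a fed or phase 2 rat ended between 27 and 51 calls, and the scalings between 11 and 20. The adjusted p of a lost call reached at most 0.194. None of the called genes changed direction. Adipoq, not called, went from -0.06 to 0.00 (adjusted p = 0.989) with arrays centred on their medians. With the replicate numbers of the titles as a block 1361 genes were higher and 2178 lower, and 15 named calls were lost. Deviations of same-numbered fed and phase 2 rats correlated at 0.096, -0.077, 0.142 and 0.117, and those of other pairs between -0.186 and 0.227. The same-numbered pairs lay within the range of the others, but with so few pairs a weak pairing by number could not be seen. The causes of these shifts were not tested. The number of arrays, 4 a group, limits the precision, and levels near background give no exact fold.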

Other observations

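Among 77 SOX, GATA, T-box, RUNX, EBF and TEAD factors 15 rose and 4 fell, against 9.66% and 15.5% of all genes. Beside the vascular factors above, the rises held Tbx3 (0.91), Tead1, a partner of the mechanosensitive coactivator YAP (0.77), and Nfatc4, a calcium-regulated factor (0.78). The adipocyte lineage factor Ebf1 rose by 0.38 ± 0.0925. In the family of STAT, IRF, NF-kappa-B and SMAD factors 3 of 32 rose and 3 fell, among the latter Stat5a, which acts downstream of the growth hormone and prolactin receptors (-0.41), while centring the arrays on their medians gave 9 rises and 3 falls.

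Apolipoprotein C3 fell from 7.17 ± 0.342 to 5.84 ± 0.19 (SD, n = 4) and Apoc1 rose by 0.60 ± 0.146. Of 11 aquaporins limma called 0 higher (1 at an unadjusted p below 0.05) and 1 lower, Aqp11 (-1.14), a channel of the endoplasmic reticulum. Slc24a3, a sodium, calcium and potassium exchanger, fell by 1.39 ± 0.0964, one of 5 falls beside 6 rises among 54 bicarbonate, proton, chloride, phosphate and sulfate carriers. Slc22a23, an orphan organic ion carrier, rose by 1.20 ± 0.126. Ebf1 was named after its values were seen.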
